A study of Caenorhabditis elegans with 2 samples.

Results

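The mir-35 family of Caenorhabditis elegans consists of the microRNA genes mir-35, mir-36, mir-37, mir-38, mir-39, mir-40, mir-41 and mir-42. The members were taken by name from the annotation of assembly WBcel235, which has the coordinates of genome build ce11. They are 8 of 261 annotated microRNA genes and of 46890 annotated genes on the 6 nuclear chromosomes. What was measured at them is the ChIP-seq signal of GFP-tagged ALY-1 in early embryos. The embryos were of hermaphrodite strain OP502, with the alleles unc-119(tm4063) III and wgIs502, and were collected 0 hours after egg bleaching, with the age given as unknown. The wgIs502 insertion is a transgene for ALY-1 with a C-terminal GFP-FLAG tag. The labels name neither its promoter nor any loss of the native aly-1 gene. Chromatin of whole embryos was sonicated and precipitated with anti-GFP, so a peak is a sum over every cell of the embryo. There were 2 biological replicates in 1 group, 1 control alignment shared by both and no precipitation from untagged worms. Nothing says that the replicates came from separate cultures, and with 1 group no test of a difference was possible.

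The data are ranked peak lists. Each replicate has 30000 candidate peaks, background included, and a further 30000 were called on both replicates pooled. The authors' thresholded list holds 881 peaks, which are the 881 with the highest signal value in the pooled list. A rank below is the place of a peak by signal value within its own list, rank 1 being the strongest. The signal values are the authors' own and are not on 1 scale between lists, running up to 643 in the pooled list, 293 in replicate 1 and 388 in replicate 2. Peak lists give no number of reads, so the depth is unknown and the only error on a peak is the spread between the replicates.

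MicroRNAs are transcribed as primary transcripts, cut in the nucleus to a hairpin by Drosha (drsh-1) and its partner Pash-1 (pash-1), and cut again by Dicer (dcr-1) to a duplex of which 1 strand is loaded into an Argonaute such as ALG-1 or ALG-2. The loaded strand finds its targets mainly through the seed, bases 2 to 8. The mir-35 family is supplied in the oocyte and early embryo, acts redundantly, and embryos that lack the whole family largely fail to develop. ALY-1 belongs to the Aly/REF proteins, nuclear adaptors that bring messenger RNA to the export machinery.

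The family is defined by a shared seed on the 3p arm, which is the strand that acts in the embryo. The mature 3p sequences, all 22 bases long, are shown from RefSeq (WBcel235), 5′ to 3′, with the seed in capitals, because this is the feature that makes the 8 genes a family.
mir-35-3p: uCACCGGGuggaaacuagcagu
mir-36-3p: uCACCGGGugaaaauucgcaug
mir-37-3p: uCACCGGGugaacacuugcagu
mir-38-3p: uCACCGGGagaaaaacuggagu
mir-39-3p: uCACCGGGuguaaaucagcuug
mir-40-3p: uCACCGGGuguacaucagcuaa
mir-41-3p: uCACCGGGugaaaaaucaccua
mir-42-3p: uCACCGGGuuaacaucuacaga
The seed CACCGGG was found in 8 of 8 members and in 8 genes in all among the 260 microRNA genes with an annotated mature sequence, so no microRNA gene outside the family carries it. Past the seed the arms diverge. Over the 28 pairs of members, identity of the whole 3p arms, shared seed included, ran between 59.1% and 86.4% with a median of 72.7%. The whole 5p arms, which have 8 different seeds, had a median of 59.5%, and the whole hairpins had a median of 57.1%. The 3p values count the seed that defines the family, and identity past the seed alone was not measured.

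The 8 genes lie at 2 places on the plus strand of chromosome II. The genes mir-35 to mir-41 form a tandem array of 797 bp at II:11537608-11538404, with gaps of 2 to 61 bp between neighbours. The array sits in an intron (II:11536066-11538445, 2380 bp) of the protein-coding gene Y62F5A.9, which is read from the opposite strand. Short non-coding RNA genes Y62F5A.14, Y62F5A.15 and Y62F5A.16 are annotated in and beside it, Y62F5A.14 overlapping mir-37. The nearest genes outside the host are Y62F5A.12, 3128 bp to the left, and dhgd-1, 490 bp to the right. The member mir-42 (II:11889811-11889905) is 351406 bp farther on, outside protein-coding genes, and heads a second array with mir-43 and mir-44, microRNA genes that lack the family seed. The non-coding gene ZK930.12 lies antisense across mir-42 and mir-43, the lincRNA linc-47 lies 1630 bp to the left of this array, and the snoRNA gene ZK930.15 lies 335 bp to its right. Because 7 members share 1 array of under 1000 bp, a single peak counts for most of them, and counts of genes below are given by place as well.

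ALY-1-GFP was at its strongest in the family just upstream of mir-42, the one member with a peak in the thresholded list. In the pooled list that peak ranked 470 with a signal value of 103 and a −log10 q of 2.50, in the top 1.57% of candidates. It spanned II:11889425-11889908, and its summit at 11889667 lay 144 bp upstream of mir-42 in sequence that holds no annotated gene. Each replicate had 2 peaks that overlapped it by at least 50% of both intervals, and the stronger was taken. In replicate 1 the stronger one ranked 423 (signal value 49.9) with its summit 245 bp upstream. The other ranked 1475 with its summit 38 bp upstream, so the pooled summit lay between them. In replicate 2 the stronger one ranked 432 (signal value 62.8) with its summit 141 bp upstream. By the stronger peak of each, the replicates therefore gave nearly the same rank by signal value, with summits 104 bp apart. That likeness rests on the choice of the stronger peak. In replicate 1 the other peak, at rank 1475, lay about as near to the pooled summit. By −log10 q the stronger peaks of the replicates differed more, at rank 1116 in replicate 1 and 235 in replicate 2.

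A second, weaker summit lay on the mir-42 gene itself in the pooled list. It ranked 3462 (signal value 57.4, −log10 q 1.05), 55 bp inside mir-42 from its 5′ end, and the peak (II:11889624-11890107) overlaps the stronger one. The replicates differed more here than at the upstream summit. The corresponding summit ranked 1475 in replicate 1, where it lay 38 bp upstream of mir-42, and 7110 in replicate 2, where it lay 63 bp inside. The spacing between the upstream and the inner summit was 199 bp in the pooled list, 207 bp in replicate 1 and 204 bp in replicate 2, so both summits lay farther left in replicate 1 than in replicate 2 at nearly the same spacing. ZK930.12, antisense to mir-42, contains the same inner summit, and a ChIP peak carries no strand.

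The sequence between these pooled summits is shown because it joins the strongest peak of the family to the gene. It runs 5′ to 3′ on the plus strand, II:11889667-11889866 of WBcel235 (RefSeq), from the upstream summit to the inner one, with the bases of the mir-42 gene in capitals.
mir-42 summit to summit: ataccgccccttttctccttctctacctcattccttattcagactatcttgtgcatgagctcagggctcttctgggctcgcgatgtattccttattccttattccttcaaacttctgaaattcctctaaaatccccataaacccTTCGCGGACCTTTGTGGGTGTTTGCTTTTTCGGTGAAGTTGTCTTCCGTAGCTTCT
The pooled inner summit falls between the mature arms, but the replicates put it upstream of the gene (replicate 1) and within the 3p arm (replicate 2).

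**Figure D1:**
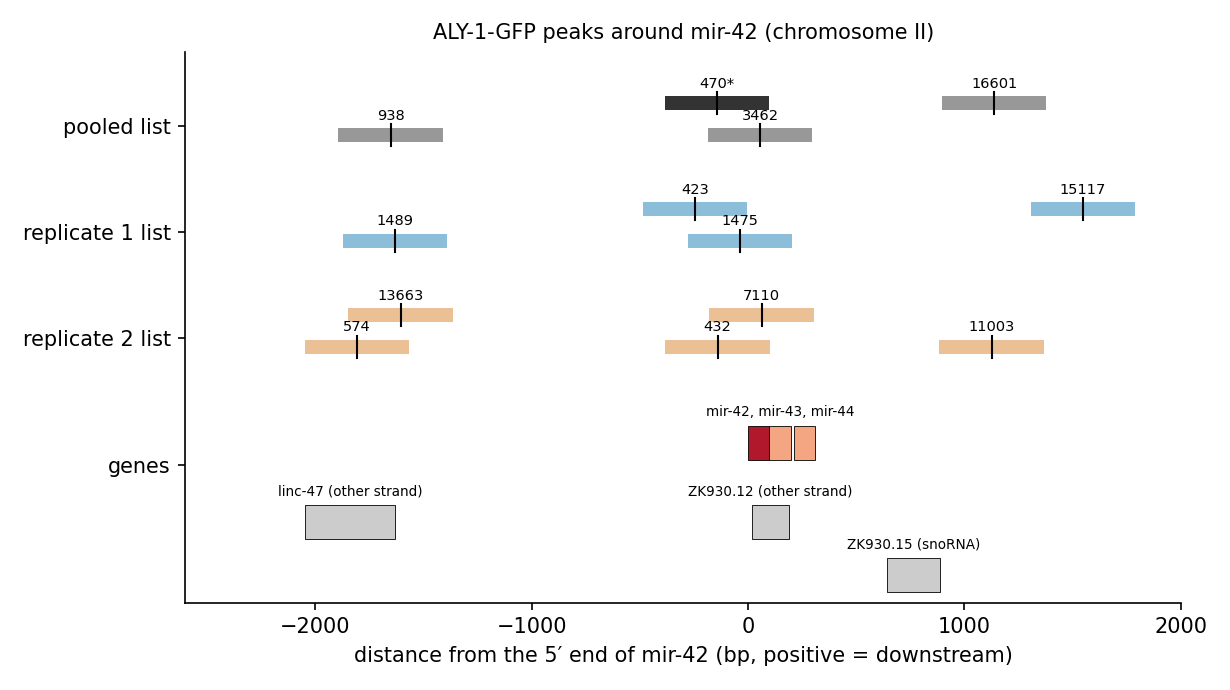
Peaks of the pooled, replicate 1 and replicate 2 candidate lists around mir-42, against distance in bp from the 5′ end of mir-42. Bars are peak intervals, ticks are summits, numbers are ranks, and the asterisk marks the one thresholded peak, with its summit 144 bp upstream of mir-42 at rank 470.

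The same peak is the nearest strong peak of mir-43 and mir-44, at 243 bp and 356 bp from its summit, so it cannot be given to mir-42 alone. The snoRNA gene ZK930.15 is within reach too, 787 bp away. Across the left gap, a peak in the exon of linc-47 ranked 938 in the pooled list (signal value 83.7), with its summit 1652 bp upstream of mir-42. In replicate 1 the summit there ranked 1489 and lay outside linc-47, 1630 bp upstream of mir-42. Replicate 2 had a summit at rank 574 in the exon, 1807 bp upstream, and another at rank 13663 outside linc-47. To the right the next pooled candidate summit lay 1043 bp beyond mir-42, outside the 1000 bp window, at rank 16601.

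The array mir-35 to mir-41 carried a pair of peaks, both below the authors' threshold. The stronger one lay upstream of mir-35. In the pooled list it ranked 1076 (II:11537029-11537512, signal value 80.3, −log10 q 2.22), in the top 3.59% of candidates, with its summit at 11537271, 337 bp upstream of mir-35. In replicate 1 it ranked 778 (signal value 41.8), with its summit 375 bp upstream. In replicate 2 it ranked 2508 (signal value 38.6), with its summit 400 bp upstream. Replicate 2 had a further summit between that one and the array, at rank 2694 (signal value 37.7), 31 bp upstream of mir-35 and inside Y62F5A.16, which the other lists lacked. The peak upstream of mir-35 thus ranked higher in replicate 1, and replicate 2 had a pair of summits upstream of the gene. The further peak of replicate 2 overlaps both its upstream peak and its peak inside mir-37, so the lists do not tell to which it belongs.

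The other peak had its summit inside mir-37 in all 3 lists. It ranked 1287 in the pooled list (II:11537645-11538128, signal value 76.7, −log10 q 2.13), with its summit at 11537887, 54 bp from the 5′ end of mir-37. In replicate 1 it ranked 1050 (signal value 38.5), 82 bp inside the gene, and in replicate 2 it ranked 1521 (signal value 44.2), 29 bp inside. The summits of the replicates were 53 bp apart, and the interval of the pooled peak spans bases of mir-35 to mir-39. In replicate 1 the upstream peak outranked the inner one, and in replicate 2 the inner one outranked both upstream peaks, so the order of the pair was not shared by the replicates. The spacing of the upstream and inner summits was 616 bp in the pooled list, 682 bp in replicate 1 and 654 bp in replicate 2.

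Both pooled summits of the array are shown with 50 bases on each side, 5′ to 3′ on the plus strand of WBcel235 (RefSeq), because they mark where the signal was highest in and beside the array. The upstream window is II:11537221-11537321 and has no capitals. The inner window is II:11537837-11537937, and its capitals mark both mature arms of mir-37, the 3p arm starting TCACCGGG as in the family alignment above.
upstream of mir-35: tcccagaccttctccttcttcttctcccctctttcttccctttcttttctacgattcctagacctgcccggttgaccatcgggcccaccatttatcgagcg
inside mir-37: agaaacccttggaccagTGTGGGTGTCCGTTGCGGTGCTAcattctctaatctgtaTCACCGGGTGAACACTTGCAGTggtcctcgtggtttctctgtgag
The pooled summit falls between the arms of mir-37, while the summit of replicate 1 lies just past the 3p arm and that of replicate 2 within the 5p arm, so the lists do not place it on 1 part of the hairpin.

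**Figure D2:**
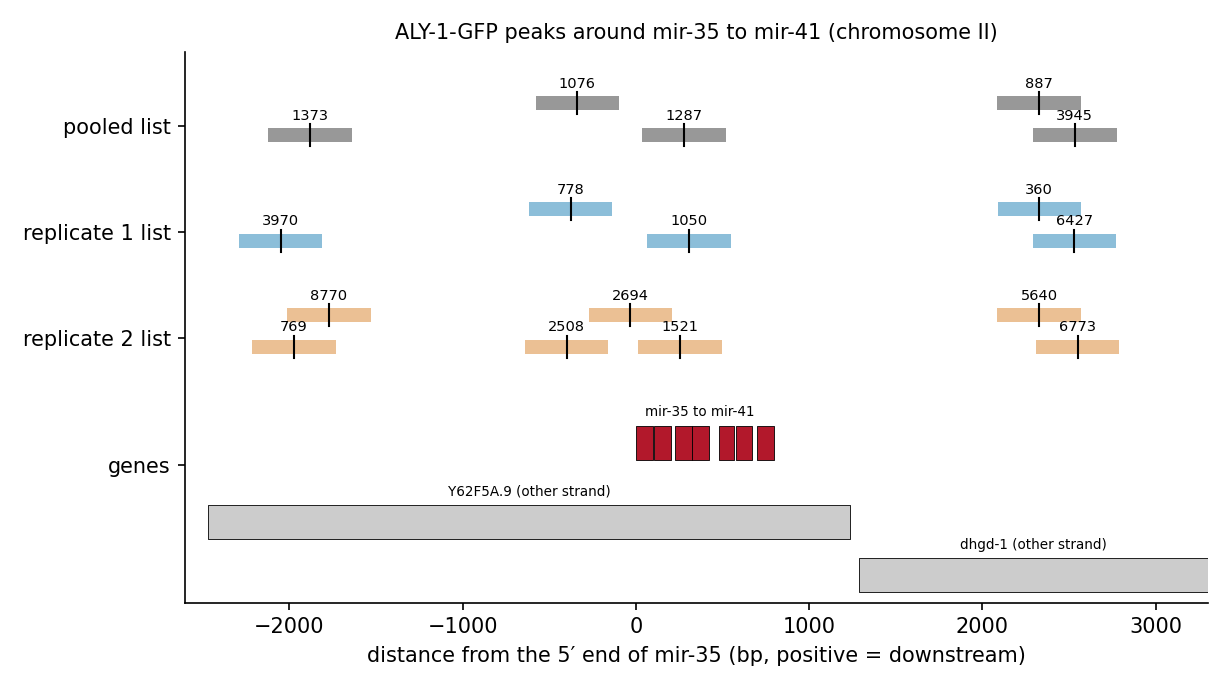
Peaks of the pooled, replicate 1 and replicate 2 candidate lists around mir-35 to mir-41, against distance in bp from the 5′ end of mir-35. Bars are peak intervals, ticks are summits and numbers are ranks, with a summit upstream of mir-35 and another inside mir-37 in each list (pooled ranks 1076 and 1287).

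The array stood far from any thresholded summit. The nearest was the summit ranked 623, which lay 27777 bp from mir-41 and 28477 bp from mir-35. Candidate peaks on either side were of like rank to those of the array. In an exon of dhgd-1, 1532 bp beyond mir-41, a pooled peak ranked 887 (signal value 85.5), 6 places under the weakest thresholded peak, and its ranks were 360 in replicate 1 and 5640 in replicate 2. In another intron of Y62F5A.9, 1882 bp upstream of mir-35, a pooled peak ranked 1373, with ranks of 3970 in replicate 1 and 769 in replicate 2. The peaks of the array thus lay between a neighbour that replicate 1 placed higher and one that replicate 2 placed higher.

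By best summit within 1000 bp, the members fall into 3 levels. mir-42 stood first, at rank 470 in the pooled list, 423 in replicate 1 and 432 in replicate 2. mir-35 to mir-40 followed at 1076, 778 and 1521 in the same lists, through the upstream and the inner peak. mir-41 came last at 1287, 1050 and 1521, because the upstream summit lies 1037 bp from it and just misses the window. By signal value mir-42 ranked above the array in both replicates. By −log10 q that order held in the pooled list, at rank 335 against a best of 1023 for the array. Of the replicates, it held in replicate 2 only, at rank 235 against a best of 1478. In replicate 1 the mir-42 peak stood at rank 1116 by −log10 q, below the array peaks at 502 and 685. mir-35 to mir-40 and mir-41 did not differ in replicate 2, where the same peak served all 7, and their order in the other lists comes from the 1000 bp limit alone. Within the array the genes share peaks and have no separate measurements.

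**Figure D3:**
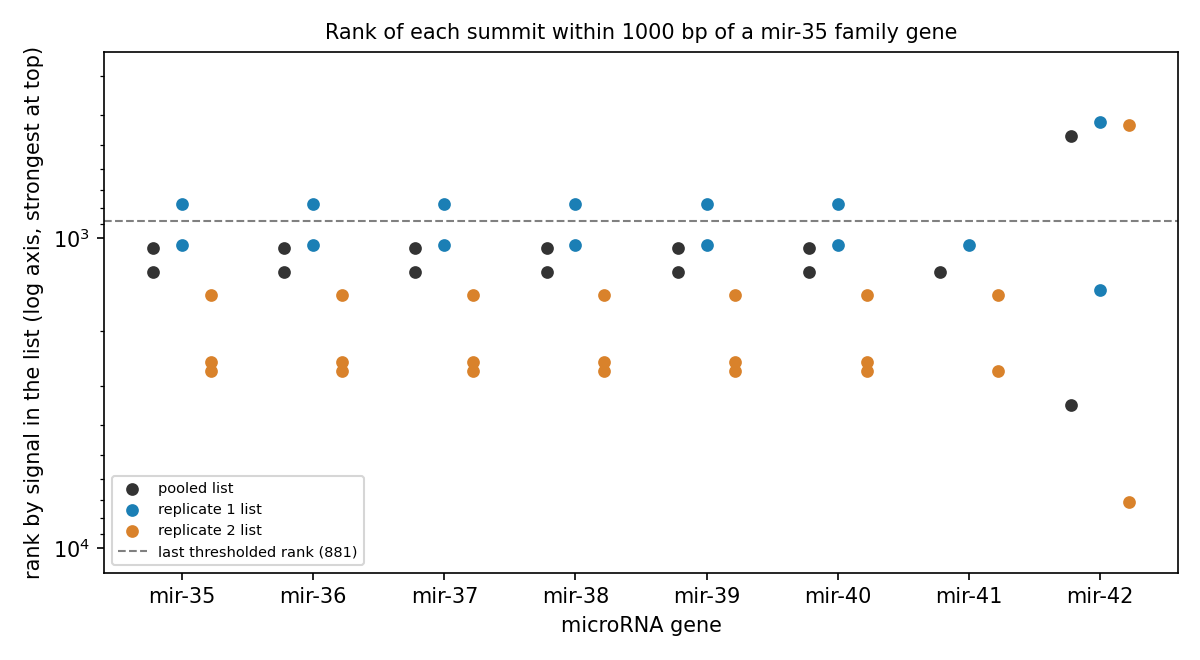
Rank by signal value (log axis, strongest at the top) of every summit within 1000 bp of each of the 8 genes, in the pooled, replicate 1 and replicate 2 lists. The dashed line is rank 881, the last thresholded peak of the pooled list, and the best summit of mir-42 lies above it in all 3 lists while mir-35 to mir-40 pass that rank in replicate 1 only.

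Agreement between replicates differed from peak to peak. Each pooled peak was given the best rank by signal value among the peaks of each replicate that overlapped it. The larger replicate rank divided by the smaller was 1.02 for the peak upstream of mir-42, 1.45 for the peak inside mir-37 and 3.22 for the peak upstream of mir-35. Among all 881 thresholded peaks the median of this ratio was 1.94, with an interquartile range of 1.38 to 3.48. Among the 619 pooled peaks ranked 882 to 1500, which include both peaks of the array, the median was 2.56, with an interquartile range of 1.55 to 4.80. By this rule the peak upstream of mir-42 and the one inside mir-37 were ranked more alike than most peaks of their strength. The peak upstream of mir-35 was within the usual range. For the peak upstream of mir-42 the rule took the better of 2 overlapping peaks in each replicate, and the other one in replicate 1 ranked 1475. The inner mir-42 peak also got 1.02, from the same replicate peaks, though its own summits ranked 1475 and 7110. At mir-42 the value 1.02 thus rests on the rule. By −log10 q, ranks in replicates 1 and 2 were 1116 and 235 upstream of mir-42, 685 and 1478 inside mir-37, and 502 and 2504 upstream of mir-35. Their ratio over all peaks was not measured by that score. All 4 pooled peaks at the family overlapped a peak of each replicate by at least 50% of both intervals.

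A thresholded summit lay within 1000 bp of 1 of 8 members, mir-42. The same was true of 31 of 253 other microRNA genes (12.3%) and of 1767 of 46882 other annotated genes (3.77%), so the share in the family is near that of microRNA genes as a class. The count of 1 rests on where the list is cut and on the replicate. Among the 881 strongest peaks of replicate 1 alone it was 7, since the peak upstream of mir-35 ranked 778 there, and among those of replicate 2 alone it was 1. Among the stronger 440 thresholded peaks it was 0, and among the 1500 strongest pooled peaks, a number chosen after the ranks were seen, it was 8. By place, with microRNA genes within 1000 bp of each other counted once, 1 of 2 places of the family had a thresholded summit, against 22 of 219 other places (10.05%).

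A pooled candidate summit lay within 1000 bp of 8 of 8 members, and each replicate list gave 8 of 8 as well. Among other microRNA genes the pooled share was 152 of 253 (60.1%), and among other annotated genes it was 21139 of 46882 (45.1%). By place it was 2 of 2 for the family and 129 of 219 (58.9%) for the others. A candidate summit is thus common near genes of any kind, and the family's count comes from 2 places.

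By rank the members stood above most other microRNA genes. Of the 253 other microRNA genes, 13 had a better pooled rank than mir-42, 32 had a better one than mir-35 to mir-40 and 36 had a better one than mir-41. In replicate 1 these numbers were 18, 25 and 33, and in replicate 2 they were 8, 29 and 29. The 152 other microRNA genes with a candidate summit had a median best rank of 6077 in the pooled list, with an interquartile range of 1375 to 15189. By place, 9 of 219 others (4.11%) ranked above mir-42 and 23 (10.5%) ranked above mir-35 to mir-41. All 8 members thus stood in the upper part of the microRNA genes in each list.

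**Figure D4:**
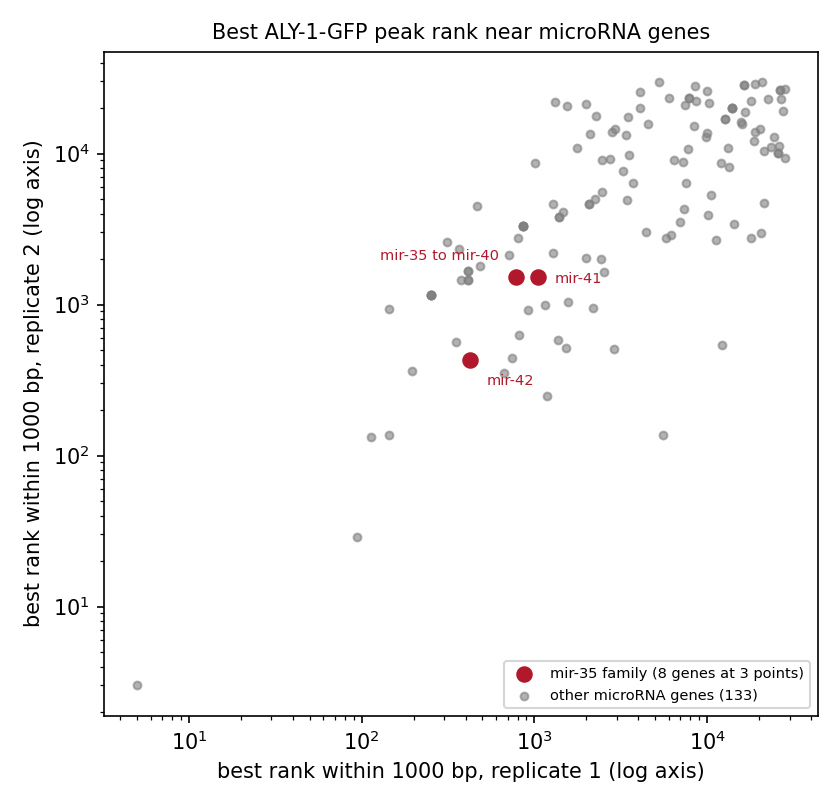
Best rank within 1000 bp in replicate 1 (horizontal, log axis) and replicate 2 (vertical, log axis) for the 8 genes of the mir-35 family, which fall on 3 points, and for the 133 other microRNA genes with a summit in both lists. Low ranks are strong peaks, and mir-42 (423 and 432) and mir-35 to mir-41 (778 to 1050 and 1521) lie toward the strong end.

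The microRNA genes most like the members in rank were found by summing the absolute differences of log10 rank over the pooled and both replicate lists, among 124 genes with a summit in all 3. The 2 replicates are the only independent samples behind these values. For mir-42 the closest were mir-43 and mir-44, which share its peak, then mir-90 (difference 0.26, pooled rank 477), mir-50 (0.26, rank 551) and mir-2211 (0.37, rank 386). For mir-35 they were mir-271 (0.29, pooled rank 857), mir-8190 (0.33, rank 1195), mir-71 (0.44, rank 747), mir-2 (0.46, rank 1640) and mir-229 (0.49, rank 1375), the last tied with its neighbours mir-64, mir-65 and mir-66, which have the same ranks. None of these has the family seed.

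Summits inside a hairpin were uncommon among microRNA genes. In the pooled list 2 of 8 members, mir-37 and mir-42, held a summit within the gene, against 15 of 253 other microRNA genes (5.93%) and 10790 of 46882 other genes of any kind (23.0%), whose median length is 196 bp. The microRNA genes compared were of like length, with medians of 96 bp in the family and 95 bp in the other microRNA genes. At the threshold the counts were 0 of 8 members, 2 of 253 other microRNA genes and 644 of 46882 other genes (1.37%). The replicates placed the mir-37 summit inside the gene each time, while the inner mir-42 summit was inside in replicate 2 and 38 bp outside in replicate 1.

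The sequence under the 4 pooled summits was richer in GC than that under most pooled peaks outside the thresholded list. In windows of 301 bp it was 56.1% upstream of mir-35, 47.8% inside mir-37, 51.5% upstream of mir-42 and 47.2% inside mir-42. Thresholded peaks had a median of 47.8% (interquartile range 43.5% to 52.2%), and the other 29119 pooled peaks a median of 41.2% (36.9% to 45.8%). All 4 windows were thus above the interquartile range of the weaker peaks. Against the thresholded peaks, only the window upstream of mir-35 was above the interquartile range and the others were inside it. The windows at mir-42 overlap each other. The B box core of tRNA genes, searched as GTTCGANNC on both strands, was in 0 of the 4 windows, in 18.8% of windows of thresholded peaks and in 3.02% of the others. The TATA sequence TATAAA on both strands was in 0 of the 4, in 12.9% of the thresholded and in 20.4% of the others. GAGAG on both strands was in the windows upstream of mir-35 and mir-42 and in neither inner window, beside 71.7% of the thresholded and 46.0% of the others. A match or its lack describes these letters only.

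The upstream windows printed above are rich in C and T on the strand of the microRNAs, a feature that was examined after the sequences had been read. Over 101 bp centred on the summit the pyrimidine share was 75.2% upstream of mir-35 and 64.4% upstream of mir-42, and 54.5% at each inner summit. On the richer strand the median was 57.4% over thresholded peaks and 56.4% over the other pooled peaks. A share of 75.2% or more was reached by 2.38% of thresholded and 1.78% of other peaks, and 64.4% or more by 25.1% and 16.7%. The window upstream of mir-35 was thus among the most pyrimidine-rich, and that upstream of mir-42 was not unusual. Although the hairpins resemble each other, every run of 30 bases in the array (768 of 768) and in each of the 4 peaks (455 of 455) occurs once in the genome.

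The same lists were read at 14 genes that make, load or turn over microRNAs or are reported targets of the family in C. elegans. The promoter window of a gene began 1000 bp before its annotated 5′ end and ended 200 bp past it. It held a thresholded summit at 3 of the 14, against 389 of 19973 protein-coding genes (1.95%). The list of 14 was chosen with earlier results of these data known, and the difference between these shares was not tested. Trans-splicing can place an annotated 5′ end downstream of the true start. The 3 were alg-1, ain-1 and sup-26. From replicate 1 alone the count was 5, with drsh-1, alg-5 and nhl-2 in and alg-1 out, and from replicate 2 alone it was 3. A pooled candidate summit was in the promoter window of 11 of 14, against 34.98% of protein-coding genes.

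The strongest of these peaks was at sup-26, which encodes an RNA-binding protein and is a reported target of the family through which it affects sex determination. It ranked 181 in the pooled list (III:4280822-4281305, signal value 143), 80 in replicate 1 and 171 in replicate 2, with its summit 840 bp upstream of the gene. Another reported target, nhl-2, a cofactor of the microRNA silencing complex, had its best promoter peak at rank 1217, with ranks of 575 in replicate 1 and 4306 in replicate 2. The third, the cell-death activator egl-1, had none in the pooled list. Of the targets, sup-26 alone had a promoter summit past the threshold rank in each list.

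Among genes for loading, alg-1, which encodes a main microRNA Argonaute, had its promoter peak at rank 328 (X:13948114-13948597, signal value 115), 754 bp upstream. It ranked 1766 in replicate 1 and 228 in replicate 2, and the snoRNA gene K02B9.10 lies 843 bp from the summit. A second thresholded peak, in an exon of alg-1, ranked 494, with ranks of 1504 in replicate 1 and 276 in replicate 2. The gene ain-1, which encodes a GW182-like partner of the Argonautes, had its promoter peak at rank 495 (X:16612435-16612918, signal value 102), 774 bp upstream, with ranks of 455 in replicate 1 and 346 in replicate 2. It too had a second thresholded peak in an exon, at rank 536, with ranks of 373 in replicate 1 and 1019 in replicate 2. For the related ain-2 the promoter window was empty, and a thresholded peak at rank 698 lay in an intron, with ranks of 13935 in replicate 1 and 305 in replicate 2. The other Argonaute genes of the list had weaker promoter peaks in the pooled list. The best one of alg-5 was at rank 946, with ranks of 335 in replicate 1 and 2412 in replicate 2. That of alg-2 was at rank 5513, with ranks of 925 in replicate 1 and 17313 in replicate 2. In replicate 1 both thus stood above alg-1.

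Of the genes for processing, drsh-1 had its best promoter peak at rank 1358 in the pooled list, 838 in replicate 1 and 3919 in replicate 2. Its partner pash-1 was at rank 21692 and dcr-1 at rank 25842, and neither had a promoter summit in replicate 1. Among the turnover genes, the exonuclease genes xrn-1 and xrn-2 were at ranks 9310 and 10930, and ebax-1, whose product takes part in decay of the family's microRNAs, had no promoter summit in any list. By group, a thresholded promoter summit was found at 2 of 8 biogenesis and loading genes, 0 of 3 turnover genes and 1 of 3 targets, numbers too small to set the groups apart.

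**Figure D5:**
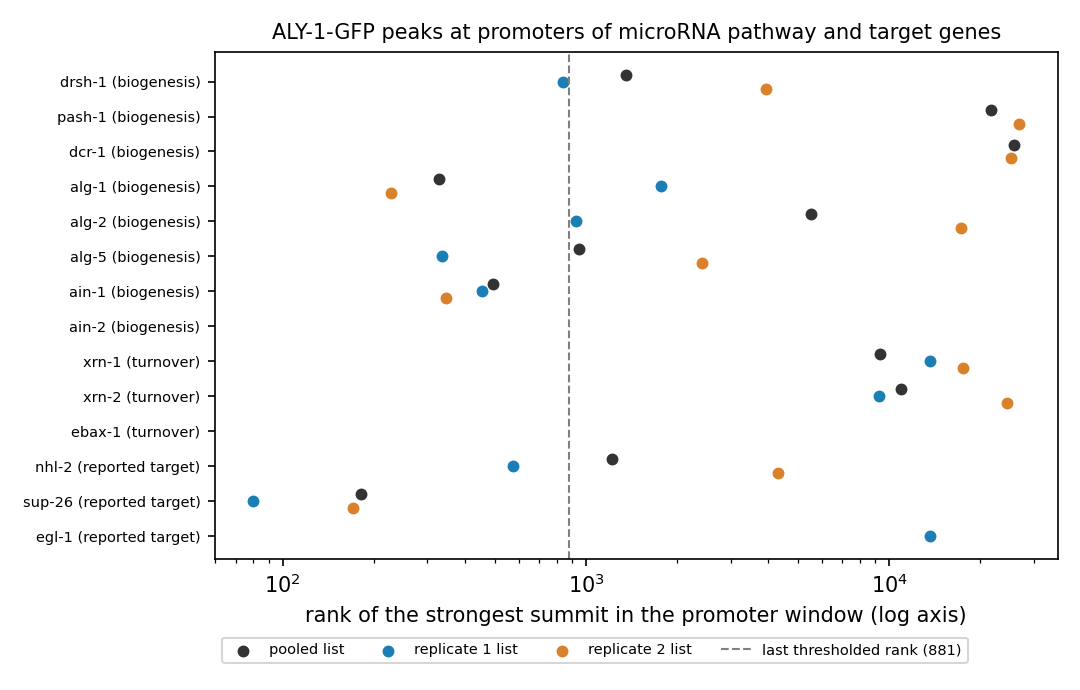
Rank by signal value (log axis) of the strongest summit in the promoter window of 14 microRNA pathway and target genes, in the pooled, replicate 1 and replicate 2 lists, where no point means no summit. The dashed line is rank 881, the last thresholded peak of the pooled list, and alg-1, ain-1 and sup-26 lie on its stronger side in the pooled list.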

How the data were processed

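ChIP-seq peak lists of 2 replicates of 1 group were used. Per the listings deposited with the samples, candidate peaks with background were called per replicate and on both pooled, as input to the irreproducible discovery rate (IDR) procedure that gave the thresholded list. Aligner, peak caller, versions and IDR cut-off: not given in the sources used here. Signal values are scores from the authors' peak caller, and a deposited column gives the q-value as −log10. Lists on ce10 were not used. Gene positions were those of Ensembl release 115 and names and sequences those of RefSeq, both of WBcel235. A gene counted where a summit lay within 1000 bp of its nearest base. Named genes were the members, mir-43 and mir-44, genes within 1000 bp of a pooled summit at a member, nearest neighbours, the 5 microRNA genes closest in rank to mir-42 and to mir-35, and listed pathway and target genes. Members and lists were chosen with earlier results of these data known. Other distances, overlap rules, thresholds, ranking columns and single replicates were tried. Counting was tested on simulated data. Python 3.11.15, numpy 2.4.6, pandas 2.3.3, Biopython 1.88 and matplotlib 3.10.9 were used.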

Additional observations from a re-analysis of the deposited data

How the results depend on the processing

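The count of members with a thresholded summit was 1 at every distance tried and when peak overlap, 5′ ends or places were used. It was 1 to 7 with a replicate left out, 0 with the stronger 440 peaks, 1 with the 1000 strongest pooled peaks and 8 with the 1500 strongest, the last 2 and the count by place being chosen after seeing the data. The share of other microRNA genes (12.3%) was 4.74% at 250 bp, 4.35% by peak overlap, 3.56% with the stronger 440 peaks and 6.72% to 12.3% with a replicate left out. The share of other annotated genes (3.77%) was 2.45%, 2.38% and 2.20% under the first 3 of these settings. The best rank of mir-42 (470) was 335 by −log10 q, 3462 when the nearest summit was taken and 423 to 432 in single replicates. By −log10 q in single replicates it was 1116 in replicate 1 and 235 in replicate 2. Ranks of mir-35 to mir-41 moved by less than the spread between replicates. Pathway and target genes with a thresholded promoter summit numbered 3 to 5 with a replicate left out. Members with a candidate summit numbered 6 of 8 at 250 bp and by overlap. No paired analysis was possible because the 2 replicates form 1 group. Depth is unknown, so the precision of single peaks could not be set.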
